A study of Mus musculus with 6 samples.

Results

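Chromosome segregation genes were examined in macrophages sorted from Day 3 skin wounds of young and aged mice. The set held 57 genes that encode parts of the kinetochore, the spindle checkpoint, the mitotic kinases, the spindle motors, condensin, the proteins of anaphase entry and the machinery of cytokinesis, together with Lbr of the nuclear envelope. They were taken by gene symbol from a list, and all 57 were present among the 15168 genes of the count table. Young mice were 12 weeks old and aged mice 24 months old. Both ages were wild-type C57BL6/J females that carried full-thickness wounds on the back, and the labels name no other treatment. Cells that stained for CD45, CD11b, F4/80 and CD64 were sorted 3 days after wounding, without a step to exclude Ly6G+ cells, so neutrophils may have been carried along. Each age had 3 samples, called A, B and C after the set letter in their titles, and a sample held 15270103 to 17927483 counts in total. The sources used here do not state how many mice made up a sample or what the set letter stands for, and if samples of one age were not separate animals the p-values measure only the spread between these samples.

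The kinetochore is the protein structure on the centromere of each chromosome to which spindle microtubules attach. Its inner part stays on centromeric chromatin that carries the histone variant CENP-A, and its outer part, built around the NDC80 complex, grips the microtubule in mitosis. Unattached kinetochores hold the spindle checkpoint active, which keeps CDC20 from switching on the anaphase-promoting complex. Once all chromosomes are attached, the complex marks securin and cyclin B for destruction, separase cuts cohesin, and the cell divides at the midzone of the spindle. Most of these genes are transcribed mainly in G2 and mitosis, so their transcripts are scarce in tissues where few cells divide, as in most mature macrophages. Macrophages can divide in tissue as well as arise from blood monocytes.

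Several parts of the segregation machinery had scarcer transcripts in the aged samples, among them Mad2l1, Ncaph, Incenp, Aurkb and Racgap1, while Hjurp, Ckap2l, Mki67 and Lbr went the opposite way. Of the 57 genes, 50 had enough counts to be tested and 7 did not, namely Cenpi, Cenpw, Knl1, Cenpf, Ttk, Plk1 and Kif4. In the edgeR quasi-likelihood test, with p-values adjusted over 11878 genes by Benjamini-Hochberg, 17 genes were lower in aged samples at an adjusted p under 0.05, 4 were higher and 29 did not pass. Over all genes tested, 7.97% were lower and 9.73% were higher by the same rule. Of the 17 lower genes 9 fell short of the level needed for a test in at least 1 aged sample, as did 0 of the 4 higher genes, so the share of lower genes among those tested is not set against that over all genes. With a change of over 2-fold as well, 16 were lower and 2 were higher, and 4.2% and 4.59% of all genes tested were. Those 9 genes are among the 16, so these shares are not set against each other either. The aged samples all lay below the young samples for 21 genes and all above them for 4. Over all genes tested 19.0% and 19.2% were separated in these ways, and no comparison is drawn here for the same reason. The median log2 fold change was -1.06, with 44 values below 0 and 6 above. Over all genes tested the median was -0.02, with 6081 values below 0 and 5797 above. The 50 values include genes that could be tested through their young values, so these figures are not set against each other either. RNA was pooled over many cells, so fewer dividing cells and less of these transcripts per dividing cell cannot be told apart.

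**Figure D1:**
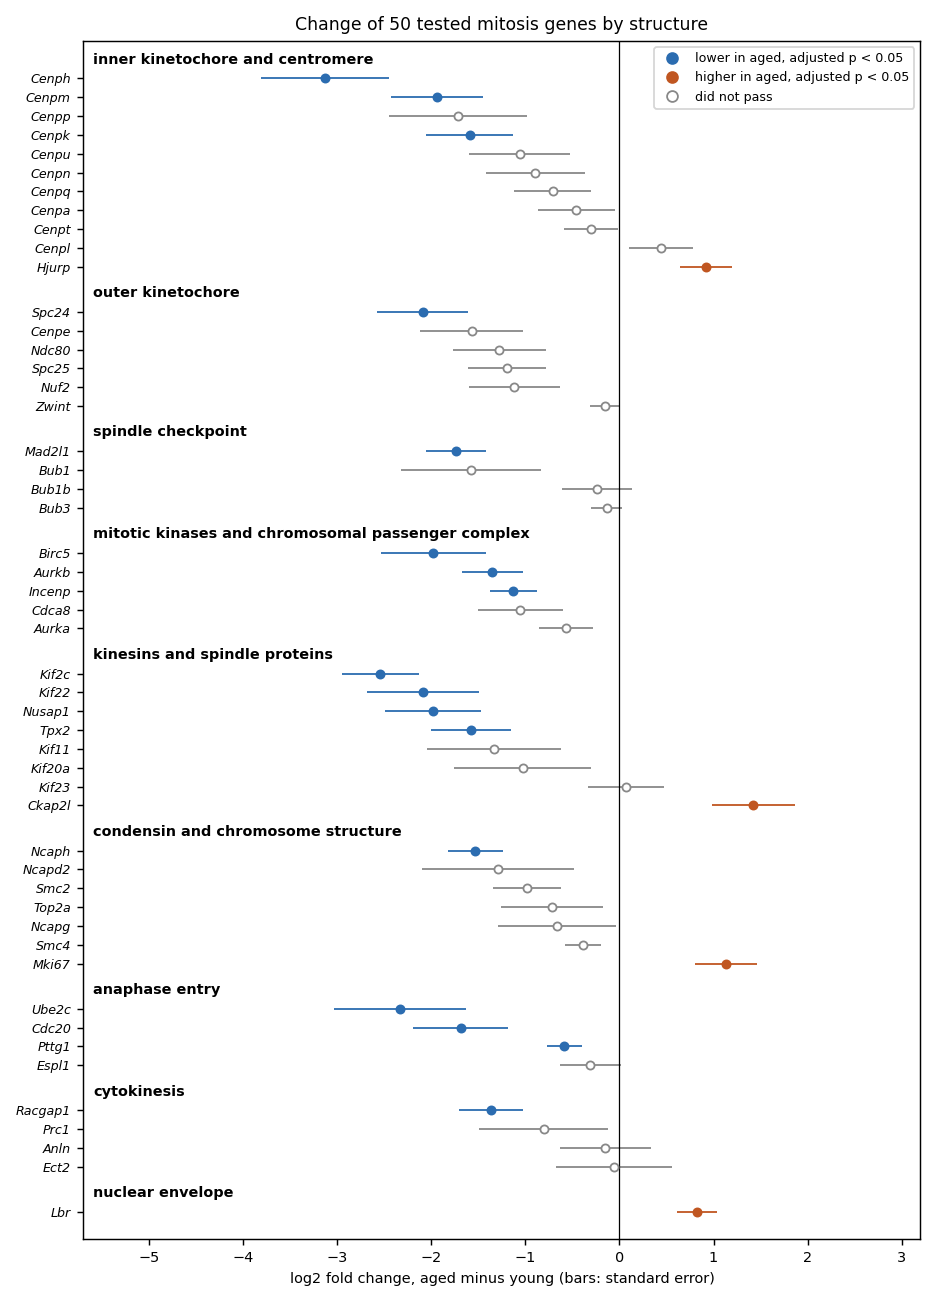
Log2 fold change (aged minus young, horizontal axis, bars show the standard error) of the 50 tested genes, grouped by structure, from 3 young and 3 aged samples. Blue points (17) were lower and orange points (4: Hjurp, Ckap2l, Mki67 and Lbr) were higher in aged samples at an adjusted p under 0.05, and open points did not pass.

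The count of tested genes leans on expression in the young samples. A gene was tested when it reached about 10 counts (0.632 CPM, counts scaled to the size of each library) in enough samples, and 20 of the 50 reached that level in all 3 young samples but not in all 3 aged. A gene that was low in the aged samples could thus be tested through its young values, so calls among these 20 carry no independent weight. They include 9 of the lower genes, Cenph, Cenpk, Cenpm, Birc5, Kif2c, Kif22, Nusap1, Cdc20 and Ube2c, and 0 of the higher genes. Among the 27 genes that reached the level in all 6 samples, 8 were lower and 4 were higher (median log2 fold change -0.56). The share over all genes at that level was not taken. In a separate fit of genes with at least 10 counts in every sample, 9 of 28 were lower and 4 were higher. In that fit 9.18% of all genes were lower and 10.7% were higher. Abundance differed as well. Of the 16 genes with a mean of at least 5 CPM, 4 were lower and 2 were higher, with a median log2 fold change of -0.42, and of the 34 tested genes under that level 13 were lower and 2 were higher, with a median of -1.31. The study itself displays 10 of the genes in a network drawn from genes that differed in these samples (Aurkb, Birc5, Kif2c, Racgap1, Kif22, Incenp, Tpx2, Cdc20, Ube2c and Mad2l1), and their direction is therefore not independent evidence. All 10 were lower, with a median log2 fold change of -1.71. Of the other 40 tested genes 7 were lower and 4 were higher, with a median of -0.76. Over all genes tested, at any abundance, 7.97% were lower and 9.73% were higher. The groups by abundance and these 40 include genes tested through their young values, so no comparison is drawn.

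Samples of the same age were not alike. Each tested gene was set against its own mean over the 6 samples on the log2 CPM scale, and the median of these offsets came to 0.78, 0.10 and 0.66 for young A, B and C and to -0.68, -0.20 and -0.43 for aged A, B and C. Young A and young C held the highest value for 21 and 18 of the 50 genes, while aged A and aged C held the lowest for 22 and 13. Across the ages, young B and aged B lay closest. Leaving out 1 sample at a time lowered the count of lower genes to 1 without young C, 3 without aged C, 9 without aged A, 11 with young A left out and 14 with young B left out, and it was 17 without aged B. Calls over the whole table went from 2103 genes to 218 without young C, 545 without aged C, 765 with young B left out, 1385 with aged A left out and 1502 with aged B left out, and rose to 2702 with young A left out. For the whole set the median log2 fold change stayed between -1.46 and -0.87 in these 6 fits. Kif2c was the only gene of the set that passed in each of them.

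**Figure D2:**
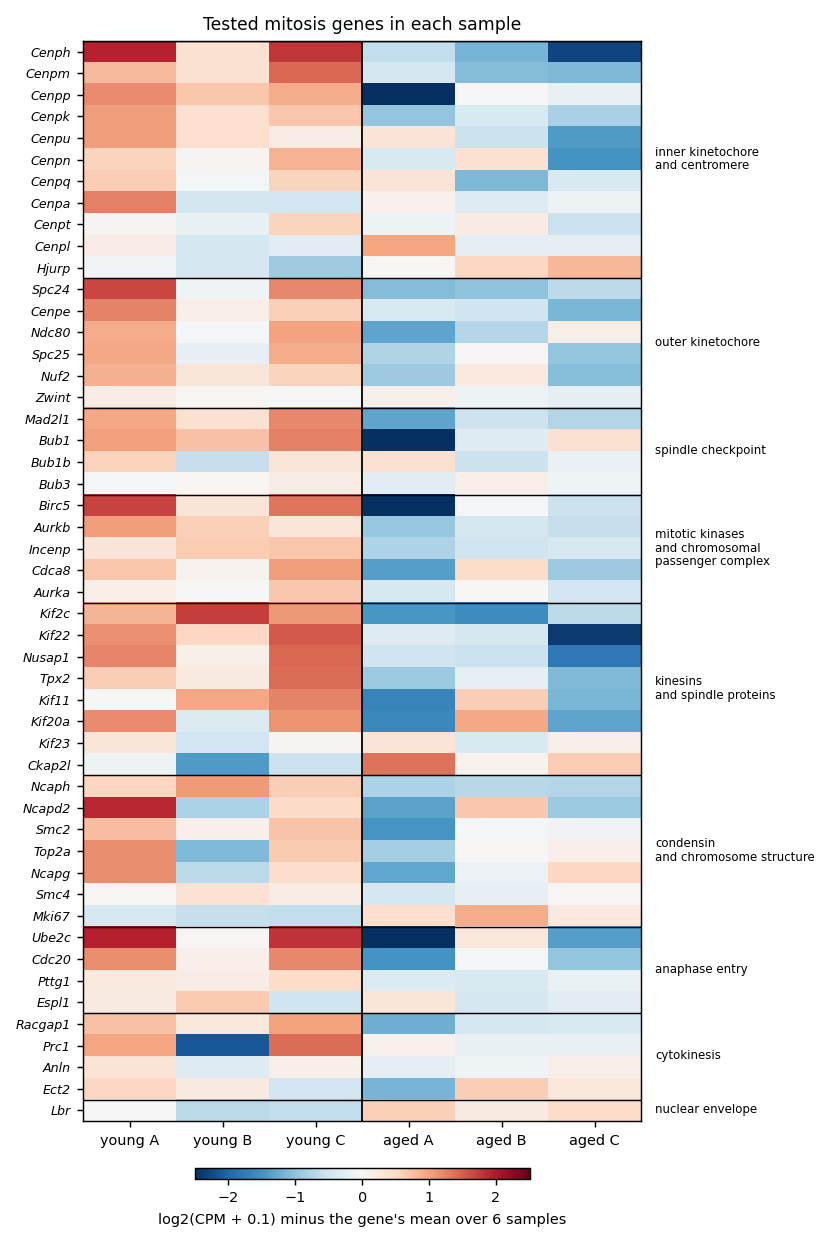
Level of each tested gene in each sample, as log2(CPM + 0.1) minus the mean of the gene over the 6 samples (colour scale from -2.5 to 2.5), with genes in rows by structure and samples in columns. Young A and young C are mostly red and aged A and aged C mostly blue, young B and aged B are paler, and the rows of Hjurp, Ckap2l, Mki67 and Lbr run the other way.

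Promoters of the set shared sequence features that the choice of genes did not use. Genes of G2 and mitosis often carry a cell cycle homology region (CHR), the site through which the DREAM and MuvB complexes act, and CCAAT boxes bound by NF-Y, whereas E2F sites are more usual in genes of G1/S. RefSeq promoters (GRCm38.p6, 250 bases before to 50 after the start) were found for 51 of the 57 genes, 56 promoters in all, and both strands were searched. The CHR was read as the letters TTTGAA, with TTCGAA also taken as a match. The box bound by NF-Y was read as CCAAT. The E2F core was read as any of TTCCCGCC, TTTCCCGC, TTTGGCGC and TTTCGCGC. A CHR was present in 69.6% of the promoters of the set, against 19.2% of all 32851 promoters searched and 14.4% of the promoters of genes tested. A CCAAT box was present in 78.6% against 37.4% and 38.0%, and both elements together in 62.5% against 7.52% and 5.92%. An E2F core was present in 10.7% against 3.49% and 6.34%. A CHR lay in 6 of 15 promoters of the lower genes (40.0%), in 4 of 4 of the higher genes and in 23 of 30 (76.7%) of those that did not pass, and these shares are descriptions without a test. The 15 promoters belong to 13 genes, since Cenpk has several, all without a CHR, which lowers that share. The lower genes Spc24, Aurkb, Incenp and Tpx2 had no promoter in the count, and that of Kif2c starts inside its gene model.

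The 4 promoters below belong, in each of the 4 structures with the most genes passing, to the gene with the smallest adjusted p among those that passed and have an entry in the promoter table. For the passenger complex this was Birc5, as Incenp and Aurkb were not matched. Each line gives 120 bases before and 30 bases from the RefSeq start, 5′ to 3′ on the strand of the gene, with matches to the searched motifs in capitals. Cdc20 (chr4:118437314-118437463, minus strand) has a CHR that begins 18 bases before the start, between CCAAT boxes 53 and 8 bases before it. Kif2c (chr4:117178743-117178892, minus strand) has a CHR 103 bases before a RefSeq start that lies 3867 bases inside the gene as the count table places it, so this window is not the 5′ end of that gene model. The windows of Cenph (chr13:100775870-100776019, minus strand) and Birc5 (chr11:117849117-117849266, plus strand) have no match, although the Cenph promoter holds a CCAAT box and an E2F core past the end of the window.
Cdc20: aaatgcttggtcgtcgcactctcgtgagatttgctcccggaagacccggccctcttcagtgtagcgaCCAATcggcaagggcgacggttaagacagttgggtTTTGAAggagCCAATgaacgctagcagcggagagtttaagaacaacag
Kif2c: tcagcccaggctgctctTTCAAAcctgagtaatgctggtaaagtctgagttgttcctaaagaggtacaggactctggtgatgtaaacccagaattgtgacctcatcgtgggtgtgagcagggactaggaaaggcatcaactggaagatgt
Cenph: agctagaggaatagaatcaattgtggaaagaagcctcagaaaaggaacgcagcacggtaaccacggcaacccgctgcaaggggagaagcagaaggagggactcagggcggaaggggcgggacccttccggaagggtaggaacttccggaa
Birc5: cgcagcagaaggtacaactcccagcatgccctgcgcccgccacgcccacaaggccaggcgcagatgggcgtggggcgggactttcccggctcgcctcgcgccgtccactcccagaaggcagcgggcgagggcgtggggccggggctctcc

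The 4 genes that were higher in aged samples are shown for contrast, chosen after their values were seen. Mki67 (chr7:135716350-135716499, minus strand) has CHR matches 116 and 98 bases before the start. Ckap2l (chr2:129297183-129297332, minus strand) has a CHR 30 bases before the start with CCAAT boxes on either side of it, and Lbr (chr1:181842372-181842521, minus strand) has the same order with the CHR 45 bases before a start 645 bases inside the gene model of the count table. Hjurp (chr1:88277550-88277699, minus strand) has a CHR 20 bases after the start. The CCAAT boxes of Mki67 and Hjurp, and another of Ckap2l that is cut by the edge of its window, lie further upstream.
Mki67: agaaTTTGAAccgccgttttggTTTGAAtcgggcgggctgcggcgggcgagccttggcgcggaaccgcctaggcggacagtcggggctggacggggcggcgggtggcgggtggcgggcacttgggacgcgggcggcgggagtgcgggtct
Ckap2l: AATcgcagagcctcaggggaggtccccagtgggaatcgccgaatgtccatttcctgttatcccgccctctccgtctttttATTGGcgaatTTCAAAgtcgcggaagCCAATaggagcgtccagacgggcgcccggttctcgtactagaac
Lbr: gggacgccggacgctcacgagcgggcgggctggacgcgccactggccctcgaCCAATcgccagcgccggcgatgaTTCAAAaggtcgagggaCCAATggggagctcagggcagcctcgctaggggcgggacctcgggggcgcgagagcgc
Hjurp: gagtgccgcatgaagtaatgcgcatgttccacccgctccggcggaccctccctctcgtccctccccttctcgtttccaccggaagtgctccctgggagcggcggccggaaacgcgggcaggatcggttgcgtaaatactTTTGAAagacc

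In the inner kinetochore and centromere group of 13 genes, 11 were tested, 3 were lower, 1 was higher and 7 did not pass, and the median log2 fold change was -0.89. The 3 lower genes, Cenph, Cenpk and Cenpm, encode subunits of the CENP-H/I/K/M complex, which links CENP-A chromatin to the outer kinetochore. All 3 could be tested through their young values, so their calls carry no independent weight, and the complex as a whole was not tested. With at least 10 counts in every sample, 5 genes of the group were left, of which 0 were lower and 1 was higher. Cenph (chr13:100759674-100775899) was measured at 2.93, 0.939 and 2.64 CPM in young A, B and C and at 0.420, 0.255 and 0.0618 CPM in aged A, B and C. The aged samples, with 6, 4 and 1 counts, lay below all young samples, and the log2 fold change of -3.13 (SE 0.68, edgeR adjusted p = 0.0160) was the largest in size of the set. Cenpm was at 1.94, 1.41 and 3.04 CPM in young and 0.771, 0.446 and 0.432 CPM in aged samples, without overlap (log2 fold change -1.94, SE 0.49, edgeR adjusted p = 0.0257). Cenpk was at 2.05, 1.29 and 1.59 CPM in young and 0.420, 0.701 and 0.494 CPM in aged samples, again without overlap (log2 fold change -1.59, SE 0.46, edgeR adjusted p = 0.0395). Cenpi, the remaining subunit, was too low to be tested, with 28, 9 and 19 counts in young and 1, 1 and 5 counts in aged samples, which do not overlap either. In the fits without 1 sample Cenph passed in 4 of 6, Cenpm in 3 and Cenpk in 0. Cenpk also did not pass in DESeq2 (adjusted p = 0.0533). In edgeR it was lost with no filter on low counts (adjusted p = 0.0597) and with the set letter as a block (adjusted p = 0.0688).

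Hjurp, the chaperone that deposits CENP-A at centromeres, went the other way. It was at 10.6, 8.39 and 6.01 CPM in young and 11.4, 16.0 and 20.1 CPM in aged samples. The aged samples lay above the young, though aged A and young A were close, and the log2 fold change was 0.92 (SE 0.28, edgeR adjusted p = 0.0439, and 0.0217 to 0.168 without 1 sample, with calls in 2 of 6 fits). With the set letter as a block the Hjurp call was lost (edgeR adjusted p = 0.0707). Cenpa itself, which encodes the histone variant, was at 84.5, 25.6 and 25.2 CPM in young and 38.1, 28.2 and 32.3 CPM in aged samples. Young A stood alone, the groups overlapped, and the log2 fold change of -0.46 (SE 0.41, edgeR adjusted p = 0.456) turned to 0.37 (adjusted p = 0.188) without that sample. Cenpt, which forms a parallel link to the NDC80 complex, had the largest adjusted p of the group. It was at 6.91, 5.75 and 9.71 CPM in young and 6.02, 7.58 and 4.51 CPM in aged samples, which overlapped (log2 fold change -0.30, SE 0.29, edgeR adjusted p = 0.488). Cenpl was at 15.9, 10.3 and 11.6 CPM in young and 27.8, 11.9 and 11.7 CPM in aged samples and did not pass. The other 4 tested genes of the group, Cenpp, Cenpu, Cenpn and Cenpq, had log2 fold changes between -1.72 and -0.71 and did not pass.

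Of the 8 outer kinetochore genes 6 were tested, and only Spc24 passed, in the lower direction, while the median log2 fold change was -1.24. Spc24 forms with Spc25 the end of the NDC80 complex that faces the chromosome. It was at 6.25, 1.76 and 4.49 CPM in young and 0.841, 0.892 and 1.17 CPM in aged samples. Young B was much lower than the other young samples but still above all aged samples (log2 fold change -2.09, SE 0.48, edgeR adjusted p = 0.0199, passing in 4 of 6 fits without 1 sample). The other subunits of the complex had log2 fold changes of -1.19 for Spc25, -1.28 for Ndc80 and -1.12 for Nuf2, with edgeR adjusted p of 0.0694, 0.0973 and 0.130. Whether Spc24 differed from these partners was not tested. Cenpe, a kinetochore motor, had a log2 fold change of -1.57 and an adjusted p of 0.0714. DESeq2 gave 2 lower genes in this group and limma-voom 4, with 0 higher in either, and at an unadjusted p under 0.05 edgeR gave 5 lower and 0 higher. Zwint, which helps to dock the checkpoint motor dynein, was far more abundant than its neighbours. It was at 71.6, 65.7 and 63.7 CPM in young and 68.9, 57.7 and 54.1 CPM in aged samples, and the groups overlapped (log2 fold change -0.15, SE 0.16, edgeR adjusted p = 0.526). Knl1 and Cenpf were below the level needed for a test, at 0.473 ± 0.332 and 0.550 ± 0.250 CPM (SD, n = 3) in young and 0.226 ± 0.231 and 0.148 ± 0.205 CPM in aged samples.

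Among the 5 spindle checkpoint genes, Mad2l1 was lower and the other 3 tested genes did not pass. Mad2l1 (chr6:66535390-66547220) encodes MAD2, the protein that sequesters CDC20. It was at 8.91, 5.87 and 10.4 CPM in young and 1.75, 3.12 and 2.66 CPM in aged samples. Every young sample was above every aged one, a 3.35-fold ratio of the means, with a log2 fold change of -1.74 (SE 0.32, edgeR adjusted p = 0.00995). The call held in 5 of 6 fits and was lost without young C (adjusted p = 0.0630). Bub1 was at 1.60, 1.29 and 1.92 CPM in young and 0, 0.573 and 0.988 CPM in aged samples, which did not overlap, yet its log2 fold change of -1.58 had an SE of 0.74 (edgeR adjusted p = 0.161). Bub1b, which encodes the checkpoint protein BUBR1, was at 5.75, 2.52 and 4.76 CPM in young and 5.04, 2.61 and 3.40 CPM in aged samples (log2 fold change -0.24, SE 0.38, edgeR adjusted p = 0.684). Bub3, the WD40 partner of BUB1 and BUBR1, was at 103, 109 and 118 CPM in young and 86.7, 116 and 97.5 CPM in aged samples, and its log2 fold change of -0.13 had an SE of 0.17 (edgeR adjusted p = 0.601). Ttk, the kinase that starts the checkpoint, had 7, 16 and 1 counts in young and 0, 5 and 0 in aged samples and was not tested.

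Of the 4 subunits of the chromosomal passenger complex, which corrects wrong attachments and later steers cytokinesis, 3 were called lower. Over all genes tested 7.97% were lower. Birc5 could be tested through its young values, so its call carries no independent weight and these shares are not compared. The complex as a whole was not tested. Aurkb, its kinase, was at 6.69, 4.87 and 3.96 CPM in young and 1.61, 2.36 and 2.10 CPM in aged samples. Birc5, which encodes survivin, was at 13.0, 4.99 and 10.2 CPM in young and 0.490, 3.88 and 2.72 CPM in aged samples. Incenp, the scaffold, was at 7.30, 9.09 and 9.51 CPM in young and 3.36, 4.08 and 4.39 CPM in aged samples. The groups did not overlap for any of these 3 genes, with the narrowest gap between young B and aged B for Birc5. The log2 fold changes were -1.35 for Aurkb (SE 0.32, edgeR adjusted p = 0.0218), -1.98 for Birc5 (SE 0.56, adjusted p = 0.0371) and -1.13 for Incenp (SE 0.25, adjusted p = 0.0164). Of the 6 fits without 1 sample, Aurkb passed in 2 and Birc5 and Incenp in 3 each. The call of Birc5 was also lost with the set letter as a block. Cdca8, which encodes borealin, was at 8.19, 5.40 and 10.5 CPM in young and 1.89, 7.01 and 2.66 CPM in aged samples. Aged B lay within the young range, the log2 fold change was -1.05 (SE 0.45, edgeR adjusted p = 0.126), and without aged B it was -1.80 (adjusted p = 0.0155). Aurka, the kinase of the spindle poles, was at 5.53, 5.05 and 7.99 CPM in young and 3.78, 5.16 and 3.58 CPM in aged samples, which overlapped (log2 fold change -0.56, SE 0.29, edgeR adjusted p = 0.192). Plk1, a kinase that acts at most steps of mitosis, was not tested, with 13, 6 and 20 counts in young and 0, 8 and 6 in aged samples.

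The kinesins and spindle proteins held the smallest adjusted p of the set and one of its 4 exceptions. Of 9 genes 8 were tested, 4 were lower, 1 was higher and 3 did not pass, with a median log2 fold change of -1.46. Kif2c, Kif22 and Nusap1 could be tested through their young values, so their calls carry no independent weight. With at least 10 counts in every sample, 4 genes of the group were left, of which 2 were lower and 1 was higher. Kif2c (chr4:117159639-117182639), which encodes MCAK, a motor that takes microtubules apart at faulty attachments, was at 3.82, 7.16 and 4.56 CPM in young and 0.701, 0.637 and 1.30 CPM in aged samples. All young samples lay well above all aged samples, a 5.90-fold ratio of the means. The log2 fold change was -2.54 (SE 0.41, edgeR adjusted p = 0.00627), and without 1 sample the adjusted p lay between 0.00385 and 0.0377. Kif22, a motor that pushes chromosome arms, was at 2.49, 1.58 and 3.30 CPM in young and 0.841, 0.764 and 0.124 CPM in aged samples (log2 fold change -2.09, SE 0.59, edgeR adjusted p = 0.0372). Nusap1, which bundles microtubules near chromosomes, was at 3.71, 1.70 and 4.29 CPM in young and 1.05, 1.02 and 0.371 CPM in aged samples (log2 fold change -1.99, SE 0.51, edgeR adjusted p = 0.0274). Tpx2, which activates Aurora A on the spindle, was at 3.48, 2.64 and 6.01 CPM in young and 1.12, 1.91 and 0.988 CPM in aged samples (log2 fold change -1.58, SE 0.43, edgeR adjusted p = 0.0317). The groups did not overlap for these 3 genes either, but each of the calls was lost in 2 or more of the 6 fits without 1 sample, and that of Kif22 in all 6. The calls of Kif22 and Tpx2 were also lost with the set letter as a block.

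Ckap2l, which encodes the spindle protein radmis, had the largest log2 fold change of the genes that were higher. It was at 2.60, 0.997 and 1.92 CPM in young and 7.43, 2.99 and 4.45 CPM in aged samples. The groups did not overlap and aged A was highest (log2 fold change 1.42, SE 0.44, edgeR adjusted p = 0.0489). Without aged A the log2 fold change was 1.02 (edgeR adjusted p = 0.155). Among the fits without 1 sample the call held only without aged B or without young A, and it was also lost with no filter on low counts. Kif23, a motor of the central spindle, had the largest adjusted p of the group, at 2.21, 1.23 and 1.85 CPM in young and 2.24, 1.34 and 1.98 CPM in aged samples (log2 fold change 0.07, SE 0.40, edgeR adjusted p = 0.925). Kif11, the motor that separates the spindle poles, and Kif20a, a motor of the midzone, did not pass, at log2 fold changes of -1.33 and -1.03. Kif20a was at 2.17 CPM in aged B against 0.280 and 0.371 CPM in the other aged samples, and without aged B its log2 fold change was -2.52 (edgeR adjusted p = 0.0421).

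All 7 genes of condensin and chromosome structure were tested, and Ncaph was lower, Mki67 was higher and 5 did not pass. Ncaph (chr2:127103809-127133954) encodes the kleisin that closes the ring of condensin I. It was at 5.03, 7.33 and 5.35 CPM in young and 1.96, 2.10 and 2.04 CPM in aged samples, and the aged samples hardly varied. The log2 fold change was -1.53 (SE 0.29, edgeR adjusted p = 0.0107), and the call held in 5 of 6 fits and was lost without young C (adjusted p = 0.0528). The other condensin subunits had log2 fold changes of -1.29 for Ncapd2, -0.98 for Smc2, -0.66 for Ncapg and -0.39 for Smc4, with edgeR adjusted p between 0.0838 and 0.481. Ncapg, with the largest adjusted p, was at 2.38, 0.587 and 1.39 CPM in young and 0.350, 0.892 and 1.48 CPM in aged samples (SE 0.62). Top2a, which untangles sister chromatids, was at 5.20, 0.997 and 3.63 CPM in young and 1.19, 2.29 and 2.47 CPM in aged samples. Young B was the lowest of all 6, the groups overlapped, and the log2 fold change was -0.72 (SE 0.54, edgeR adjusted p = 0.374).

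Mki67 (chr7:135689784-135716361) encodes Ki-67, the coat protein of mitotic chromosomes whose staining is widely used to mark cycling cells. Its transcript was at 1.94, 1.70 and 1.65 CPM in young and 3.50, 5.03 and 3.09 CPM in aged samples, or 35, 29 and 25 counts against 50, 79 and 50. The young samples were tightly grouped and all aged samples lay above them, aged B highest. The log2 fold change was 1.13 (SE 0.33, edgeR adjusted p = 0.0412), a direction opposite to that of Top2a, Birc5 and most of the set. The direction held in all 6 fits without 1 sample, but the adjusted p in them lay between 0.0513 and 0.139, so the call was lost in each. The Mki67 call was also lost with the set letter as a block. Without aged B the log2 fold change was 0.91 (adjusted p = 0.130). The study also stained wounds of the same day for Ki-67, and reports a smaller share of positive macrophages in aged than in young wounds. The staining thus went opposite to the transcript. Whether the share of cycling cells differed between the sorted samples was not tested.

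**Figure D3:**
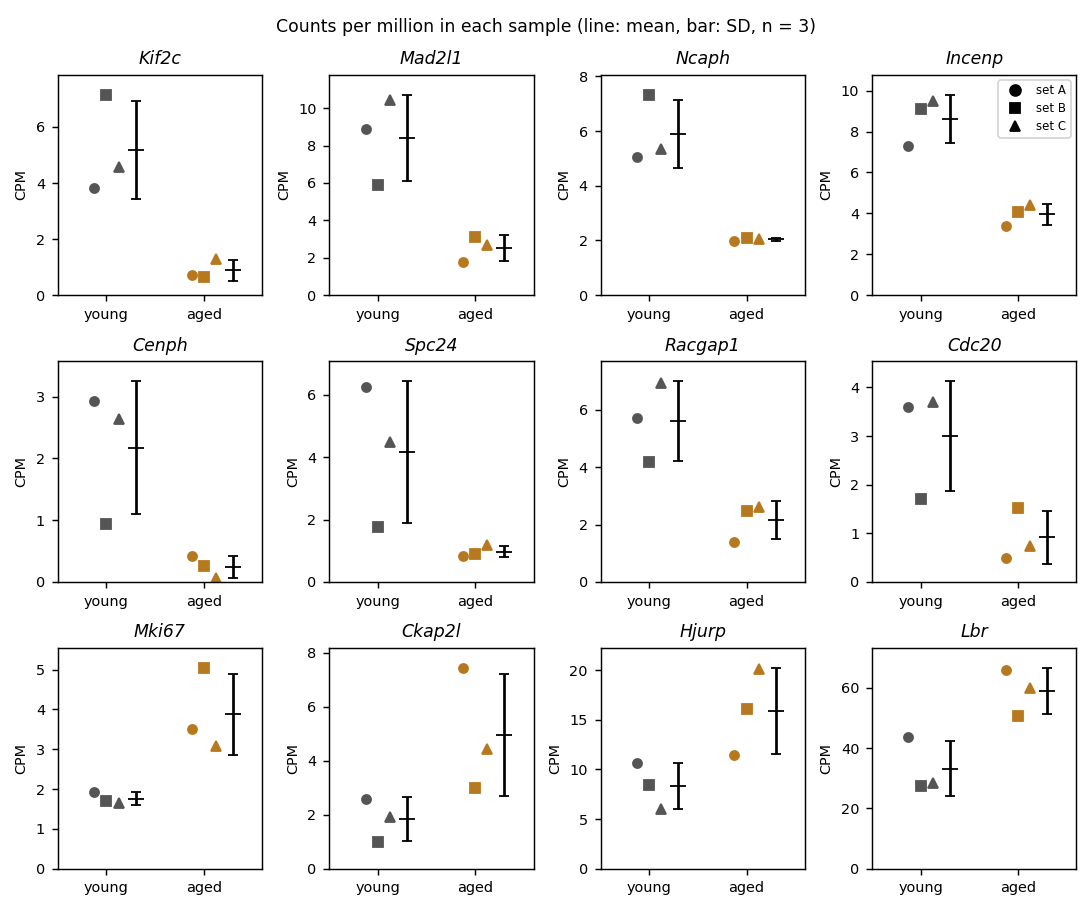
CPM in each sample for 12 genes of the set, with circles, squares and triangles for sets A, B and C, and beside them the mean (line) and SD (bar) of 3 samples per age. In the upper rows every young sample lies above every aged one, and in the bottom row (Mki67, Ckap2l, Hjurp and Lbr) every aged sample lies above every young one.

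Of the 4 genes of anaphase entry 3 were called lower, where 7.97% of all genes tested were. Cdc20 and Ube2c could be tested through their young values, so their calls carry no independent weight and these shares are not compared. With at least 10 counts in every sample, 2 genes of the group were left, of which 1 was lower. Cdc20, the activator of the anaphase-promoting complex, was at 3.60, 1.70 and 3.70 CPM in young and 0.490, 1.53 and 0.741 CPM in aged samples. Ube2c, the ubiquitin-conjugating enzyme that works with the complex, was at 7.69, 1.99 and 6.94 CPM in young and 0.210, 2.36 and 0.679 CPM in aged samples. Pttg1, which encodes securin, was at 18.3, 17.7 and 21.2 CPM in young and 12.3, 11.9 and 13.8 CPM in aged samples. Cdc20 separated the ages by a narrow gap between young B and aged B, Pttg1 separated them clearly, and Ube2c did not, since aged B exceeded young B. The log2 fold changes were -1.69 for Cdc20 (SE 0.50, edgeR adjusted p = 0.0437), -2.34 for Ube2c (SE 0.70, adjusted p = 0.0449) and -0.59 for Pttg1 (SE 0.18, adjusted p = 0.0497). Without aged B that of Ube2c was -3.57 (adjusted p = 0.0127). Cdc20 and Ube2c each passed in 2 of 6 fits without 1 sample and Pttg1 in 0. Pttg1 also did not pass with DESeq2 size factors in edgeR or with no filter on low counts. With the set letter as a block, 0 of these genes passed. Espl1, which encodes separase, was at 8.13, 11.0 and 4.89 CPM in young and 8.62, 5.16 and 5.68 CPM in aged samples, with overlap (log2 fold change -0.31, SE 0.33, edgeR adjusted p = 0.535).

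Of the 4 cytokinesis genes, Racgap1 was lower and 3 did not pass. Racgap1 encodes the GTPase-activating subunit of centralspindlin, the complex it forms with the product of Kif23. It was at 5.70, 4.17 and 6.94 CPM in young and 1.40, 2.48 and 2.59 CPM in aged samples. The groups did not overlap (log2 fold change -1.36, SE 0.34, edgeR adjusted p = 0.0250), and 3 of 6 fits without 1 sample kept the call. Its partner Kif23 stood at a log2 fold change of 0.07, and the difference between the partners was not tested. Ect2, the exchange factor that centralspindlin recruits to activate RhoA, was at 0.885, 0.704 and 0.396 CPM in young and 0.210, 0.955 and 0.741 CPM in aged samples (log2 fold change -0.06, SE 0.62, edgeR adjusted p = 0.962). Prc1, which bundles midzone microtubules, was at 3.32, 0.293 and 4.43 CPM in young and 1.75, 1.40 and 1.42 CPM in aged samples. Young B, with 5 counts, was below every other sample, and the log2 fold change of -0.81 (SE 0.69, edgeR adjusted p = 0.435) was -1.33 without it (adjusted p = 0.0614). Anln, which encodes the actin-binding protein anillin, had a log2 fold change of -0.15 and an adjusted p of 0.853.

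Lbr (chr1:181815335-181843046) encodes the lamin B receptor, a membrane protein of the inner nuclear envelope that tethers heterochromatin and also has sterol reductase activity, so it has work outside mitosis. It was at 43.7, 27.3 and 28.6 CPM in young and 65.9, 50.8 and 60.1 CPM in aged samples. All aged samples lay above all young samples, a 1.77-fold ratio of the means (log2 fold change 0.83, SE 0.21, edgeR adjusted p = 0.0267). Without young A the log2 fold change was 1.08 (adjusted p = 0.00491). The call held there and without aged B and was lost in the other 4 fits, where the adjusted p lay between 0.0632 and 0.121.

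Levels per length of transcript set the genes apart from one another. Per kb of exon, the mean level over the 6 samples was 15.0 CPM for Bub3, 14.3 for Zwint, 9.68 for Lbr, 7.93 for Pttg1 and 6.66 for Cenpa. These were the highest levels of the set, and of these genes Pttg1 was lower by less than 2-fold, Lbr was higher and the others did not pass. Kif2c stood at 0.694 CPM per kb, Cenph at 0.677, Mki67 at 0.280 and Cenpf, the lowest, at 0.0226.

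**Figure D4:**
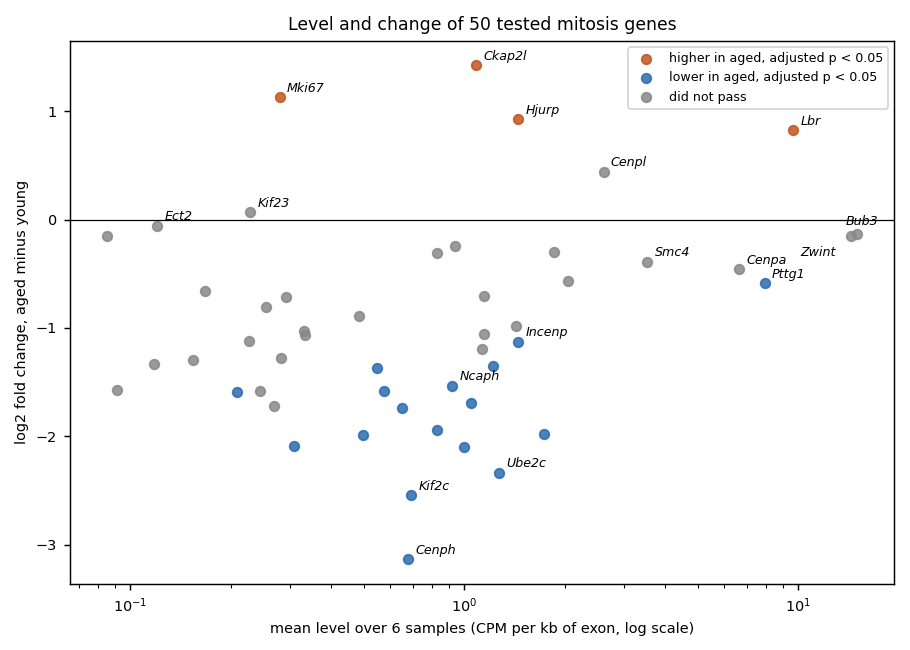
Mean level over the 6 samples (CPM per kb of exon, log scale) against the log2 fold change, aged minus young, for the 50 tested genes. The most abundant genes, Bub3 and Zwint, lie near 0, and the genes that were lower by over 2-fold (16) lie between about 0.208 (Cenpk) and 1.73 (Birc5) CPM per kb.

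Some values may include reads of a neighbouring gene, since the sources used here do not state whether counting used the strand. Of the genes that passed, Cenpk, Nusap1, Cdc20, Ube2c and Lbr share 53 to 592 bases of exon with a gene of the opposite strand (GENCODE M21). Nusap1 shares 172 bases with Oip5, which had 33, 19 and 7 counts in young and 2, 3 and 2 in aged samples. Cdc20 shares 53 bases with Elovl1, which had 1767 to 2869 counts in every sample. Ube2c shares 592 bases with Tnnc2, which had 1, 31 and 7 counts in young and 2, 1 and 13 in aged samples, against 139, 34 and 105 and 3, 37 and 11 for Ube2c.

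Other genes of mitosis were taken as a list of 63 beside the set, of which 62 were in the count table and 49 were tested. In the edgeR test 10 were lower (20.4% of those tested) and 0 were higher, where 7.97% and 9.73% of all genes tested were. At an unadjusted p under 0.05, 16 were lower and 4 were higher, where 1957 and 2145 of all 11878 genes tested were. Genes of this list could also be tested through their young values, so these shares are not set against each other. DESeq2 gave 11 lower and 2 higher, where 8.58% and 11.7% of all genes were. By limma-voom 10 were lower and 3 higher, where 14.4% and 16.3% were. With at least 10 counts in every sample, 32 were left, 5 were lower and 0 were higher, where 9.18% and 10.7% of all genes were. The count of lower genes was 1 without young C, 3 without aged C, 4 without young A, 5 without aged A, 6 without young B and 8 without aged B. Over all genes the share lower in these fits was 0.548%, 1.58%, 9.29%, 4.26%, 2.71% and 4.98%, in the same order. The median log2 fold change was -0.44. Pmf1, a subunit of the MIS12 complex of the outer kinetochore, was at 21.7, 26.4 and 24.8 CPM in young and 11.6, 9.74 and 9.20 CPM in aged samples (log2 fold change -1.26, SE 0.19, edgeR adjusted p = 0.00436). Cdk1, the kinase that drives entry into mitosis, was at 14.1, 7.22 and 14.3 CPM in young and 2.94, 4.84 and 4.57 CPM in aged samples (log2 fold change -1.52, SE 0.32, edgeR adjusted p = 0.0148). Cenpx, a histone-fold subunit of the inner kinetochore that also serves DNA repair, was at 33.3, 34.6 and 40.6 CPM in young and 17.1, 20.3 and 23.5 CPM in aged samples (log2 fold change -0.83, SE 0.18, edgeR adjusted p = 0.0164). The groups did not overlap for any of these 3 genes. Of the 6 fits without 1 sample, Pmf1 passed in 6, Cenpx in 5 and Cdk1 in 4. In the other direction the smallest adjusted p values were those of Stag2, a cohesin subunit, at 0.0512, Cdc27, a subunit of the anaphase-promoting complex, at 0.0560 and Mis12 at 0.0689, with log2 fold changes of 0.53, 0.57 and 0.82.

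Transcripts of other cell types were present and differed between samples. The 4 genes of the sorting markers were detected in all samples, at a summed 1254 to 1440 CPM in young and 1632 to 1789 CPM in aged samples. Of these, Itgam (CD11b) was higher (log2 fold change 0.99, edgeR adjusted p = 0.00735) and Adgre1 (F4/80) was lower (log2 fold change -0.69, adjusted p = 0.0292), the latter lost without young B, young C, aged A or aged C. Of 5 macrophage genes 1 was higher (Cd14, log2 fold change 1.10, edgeR adjusted p = 0.0110, in 4 of 6 fits without 1 sample) and 0 were lower. Lyz2 and Cd68 lay lower in all aged samples but did not pass (log2 fold change -0.68 and -0.41, edgeR adjusted p = 0.0753 and 0.121). DESeq2 gave 1 lower macrophage gene and limma-voom 2. Erythroid genes summed to 153, 490 and 423 CPM in young and 41.8, 152 and 106 CPM in aged A, B and C, with 4 of 5 lower and none of the 5 at 0. Of the erythroid genes, 2 were lower without aged A and 0 without aged C, young B or young C. Genes of T and NK cells summed to 4.49 to 6.16 CPM in young and 3.15 to 4.06 CPM in aged samples, with 1 of 3 tested lower (Cd4), and B cell genes to 4.62 to 12.9 and 2.61 to 4.08 CPM, with the 1 tested lower (Cd79b) and Cd79a at 0 in young B, young C and aged A. Keratinocyte genes summed to 113 CPM and fibroblast genes to 119 CPM in aged B, the aged sample with the most Mki67, Birc5, Ube2c and Kif20a, against 1.67 to 1.96 and 12.4 to 35.1 CPM in the other aged samples. Among the keratinocyte genes 1 of 1 tested was higher, a call lost without young B or young C and in limma-voom, and Krt1 and Dsp were at 0 in all young samples. Dendritic cell genes were highest in aged A, at 85.7 CPM, the sample with the most Ckap2l and Cenpl, against 7.51 to 40.0 CPM in young and 22.2 to 33.5 CPM in the other aged samples, with 0 of 4 passing in edgeR (1 higher at an unadjusted p under 0.05), 0 in DESeq2, 1 higher in limma-voom and 2 higher without young A. Of the fibroblast genes 0 of 5 passed in edgeR (0 at an unadjusted p under 0.05) and in DESeq2, and 2 were higher without aged A. Neutrophil genes summed to 704 to 1194 CPM in young and 885 to 1510 CPM in aged samples, with 3 of 11 higher (1 without young B and 0 without aged A, aged C, young A or young C), and of the granulocyte precursor genes Prtn3 was higher, while Elane was at 0 in all young samples. Endothelial genes summed to 9.91 to 11.2 CPM in young and 25.0 to 30.5 CPM in aged samples, with 1 of 2 tested higher (Pecam1, also in all 6 fits without 1 sample, and most of this sum), Kdr not passing, and Cdh5 and Tek too low for a test. Mast cell genes summed to 18.8 to 72.0 CPM in young and 0.0618 to 47.1 CPM in aged samples, with 0 of 4 passing in edgeR (0 at an unadjusted p under 0.05 too) and in DESeq2, and 4 lower in limma-voom and without aged A. With 1 sample left out, the calls of Cd4 and Prtn3 held only without aged B and that of Cd79b only without young A. The gate on CD45 should leave out keratinocytes, fibroblasts and endothelial cells. The gate on CD11b, F4/80 and CD64 together is meant to leave out T, NK, B and mast cells. The antibody list that the study gives for its flow cytometry and sorting also holds TER119, CD31, TIE2, EpCAM and PDGFRα, which mark red cells, endothelium, epithelium and fibroblasts, but the text on the sort does not say whether they were used in its gate. The part of these cells in the values of the segregation genes was not tested.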

How the data were processed

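RNA of macrophages sorted from Day 3 wounds was sequenced in 3 young and 3 aged samples (SMART-Seq v4, paired-end). The authors aligned the reads with STAR 2.7.3a to mm10 and quantified Ensembl transcripts in Partek Flow, and the deposited values are expected counts per gene without normalisation, for genes that summed to 10 or more across all samples. Whether strand was used is not given in the sources used here, and 10 of the 57 genes had fractional counts. A second deposited table holds the authors' DESeq2 comparison (fold changes, p-values and scaled counts), which was not used.

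The members and lists were chosen with earlier results of these data known. Expected counts were rounded and tested in R 4.3.3 with edgeR 4.0.16 (TMM scaling, filterByExpr by age, quasi-likelihood test of aged against young, no block, Benjamini-Hochberg over 11878 genes). SEs are the log2 fold change divided by the root of the F statistic. CPM used TMM-scaled libraries, and sample offsets log2 CPM with a prior count of 2. CPM per kb used the union of GENCODE exons of mm10. Gene coordinates are those of the count table, with its end column, which lies 1 past the last base, lowered by 1, and promoters came from RefSeq (GRCm38.p6). With totals of 15270103 to 17927483, 1 count was worth 0.0558 to 0.0655 CPM before TMM scaling. Within an age, samples varied beyond sampling noise, and all 6 were counted.

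Named genes were, in each structure, up to 4 that passed with the smallest adjusted p, those that passed against the sign of the median, the tested gene with the largest adjusted p and Mki67, and of the other mitosis genes the 3 with the smallest adjusted p in each direction. Other genes were named after their values were seen. Other settings were DESeq2 1.42.0, limma-voom 3.58.1 with sample quality weights, DESeq2 size factors in edgeR, no filter, at least 10 counts in every sample, the set letter as a block, and each sample left out in turn. Leaving out the 10 genes shown by the study was added after the data were seen. Steps were tested on simulated data, and plots drawn in matplotlib 3.10.9 (Python 3.11.15, pandas 2.3.3).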

Additional observations from a re-analysis of the deposited data

How the results depend on the processing

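No gene of the set that passed the test changed direction under any setting tried, and 10 values of 6 genes that did not pass had the other sign. With at least 10 counts in every sample, which left 28 genes, 9 were lower, 8 of them by over 2-fold, and 4 were higher, 2 of them by over 2-fold. Of all genes 9.18% were lower and 10.7% higher in that setting, and the median log2 fold change of the 28 genes was -0.59. With no filter, 16 were lower and 3 were higher, where 5.33% and 6.74% of all genes were, and 1 gene was higher by over 2-fold. Without the 10 genes listed above as drawn in a network, 7 were lower, 6 of them by over 2-fold. DESeq2 gave 18 lower and 4 higher, where 8.58% of all genes were lower and 11.7% higher, and limma-voom gave 24 and 4, where 14.4% and 16.3% were, against 7.97% and 9.73% in edgeR. With the set letter as a replicate block, 10 were lower and 2 were higher, where 7.68% and 10.1% of all genes were, and 10 and 1 of them changed by over 2-fold. Of the other genes of mitosis 6 were lower with the block. The block ended the calls of all 3 genes of anaphase entry (Cdc20, Ube2c and Pttg1) and of Hjurp, Cenpk, Birc5, Kif22, Tpx2 and Mki67, and those of the 3 neutrophil genes, Cd79b and Prtn3, and 2 dendritic cell genes were higher with it. Deviations of samples with the same letter correlated at 0.18 for A, -0.02 for B and 0.11 for C. Those of samples with different letters correlated at -0.22 (young C and aged A) to 0.14 (young C and aged B), so the value for A was the highest. These values do not settle whether the letters pair the samples, and the main test was kept without a block. Leaving out 1 sample gave 1 to 17 lower, 0 to 3 higher, 1 to 17 lower and 0 to 3 higher by over 2-fold, and medians of -1.46 to -0.87. In the same fits 0.548% to 9.29% of all genes were lower and 1.24% to 13% were higher. These fits also test fewer samples. Most genes had few counts, such as 1 to 6 for Cenph in aged samples, which limits the precision of their fold changes.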
